A study of Mus musculus with 4 samples.

Results

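The genes examined here encode the integrin receptors and the laminin chains, which are among their main ligands in the basement membrane. They were chosen by gene symbol: every integrin alpha or beta subunit gene and every laminin alpha, beta or gamma chain gene with a row in the expression table, which gave 37 genes (26 integrin subunits and 11 laminin chains) of 38713. RNA-seq had been performed on 4 mouse mammary tumor cell lines, each established from its own tumor and sequenced as a single library. The JNK_WT group (p53-/-, n = 2, replicates 1 and 2) came from parous Wap-Cre females with floxed Trp53. The JNK_KO group (p53-/- JNK-/-, n = 2, replicates 1 and 3) carried in addition floxed Mapk8 and Mapk9, the genes for JNK1 and JNK2. All mice were of the C57BL/6 strain and their ages were not given in the labels. Both groups therefore lacked Trp53 by their genotype label, and the comparison asks what loss of JNK adds. Wap-Cre is switched on by lactation and acts in luminal cells of the mammary epithelium. The lines were first plated on collagen I, a ligand of some of these integrins, and then passaged on uncoated plastic in medium with serum, so each line is a selected culture and not a tumor.

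An integrin is a pair of 1 alpha and 1 beta subunit that spans the cell membrane, holds the matrix outside and the actin or keratin cytoskeleton inside, and signals in both directions. A laminin is a trimer of an alpha, a beta and a gamma chain, and its name gives the 3 chain numbers in that order, so that laminin 511 consists of the products of Lama5, Lamb1 and Lamc1. In the mammary gland, epithelial cells sit on a laminin-rich basement membrane, and their receptors for it position the cell, polarise it and keep it alive.

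Expression was given as FPKM (fragments per kilobase of transcript, scaled to the mapped fragments of the library), a unit corrected for transcript length, so that levels of different genes can be set side by side. FPKM carry no read counts and no counting interval was computed. The FPKM sums were between 775960 and 921595 per library. Values are given in the order JNK_WT replicates 1 and 2, then JNK_KO replicates 1 and 3. Mapk8 was at 23.9, 19.1, 4.30 and 4.27 FPKM, and Mapk9 at 29.7, 24.3, 12.6 and 8.66 FPKM. Both JNK genes were thus lower in each JNK_KO library. Trp53, floxed in both groups, was still read in every library, at 1.55, 4.15, 5.72 and 4.28 FPKM. Of the 5 luminal epithelial markers examined (Krt8, Krt18, Krt19, Epcam and Cdh1), 5 were at 1 FPKM or more in at least 2 libraries. Their summed level was 3059 and 2072 FPKM in JNK_WT and 894.5 and 1744 FPKM in JNK_KO cells. Krt8 and Epcam were lower in both JNK_KO lines, while Krt18, Krt19 and Cdh1 overlapped between the groups. The 5 basal and myoepithelial markers (Krt5, Krt14, Trp63, Acta2 and Cnn1) summed to 15.1 and 532 FPKM in JNK_WT and to 30.1 and 349 FPKM in JNK_KO cells. In this sum replicate 2 of JNK_WT and replicate 3 of JNK_KO stood apart from the other library of their genotype. Krt14 made up most of it in these libraries, at 442.9 and 312.8 FPKM. In JNK_KO replicate 3, Krt5 and Cnn1 were at 0.205 and 0.438 FPKM, and Trp63 and Acta2 at 6.58 and 29.0 FPKM. The 6 mesenchymal markers (Vim, Pdgfra, Pdgfrb, Col1a1, Dcn and Thy1) summed to 332.4 and 48.5 FPKM in JNK_WT and to 607.9 and 332.9 FPKM in JNK_KO cells. Vim made up most of these sums except in JNK_KO replicate 3, and the fibroblast proteoglycan gene Dcn was at 0.430 and 0.389 FPKM in JNK_WT, against 79.7 and 161.7 FPKM in JNK_KO cells. Pdgfra, Pdgfrb and Thy1 were also higher in both JNK_KO lines, whereas Vim and Col1a1 overlapped. The 4 endothelial markers (Pecam1, Cdh5, Kdr and Tek) were under 1 FPKM in each library. In RNA from a whole culture, fewer cells of one type and less RNA per cell cannot be told apart.

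Of the 37 genes, 23 reached 1 FPKM in at least 2 of the 4 libraries and were tested among 12998 genes, while 14 did not. With a limma adjusted p-value under 0.05 and an absolute log2 difference over 0.75 as the criteria, 0 of the 23 were called, against 0% of all genes tested. At an unadjusted p-value under 0.05 there were 2 (Itga3 and Itga7), which is 8.70% of the 23 against 7.63% of all genes tested. That number was 6 without JNK_WT replicate 1, 5 without JNK_WT replicate 2 and 0 without either JNK_KO line. By size alone, 5 genes were lower in JNK_KO cells by more than 0.75 on the log2 scale (among them Itgb4, Itga3, Lamb1 and Itgb2), which is 21.7% against 6.43% of all genes, and 2 were higher by more than 0.75 (Itga7 and Itgav), 8.70% against 9.25%. Without JNK_WT replicate 1, 11 genes in place of 7 passed this size. Both libraries of one genotype lay beyond both of the other for 4 genes that were lower in JNK_KO cells (Itga3, Itgb1, Itgb4 and Itga2b), 17.4% against 16.7% of all genes, and for 3 that were higher (Itga5, Itga7 and Lamb2), 13.0% against 18.3%. The median log2 difference was -0.09 over the 15 tested integrin genes and -0.23 over the 8 tested laminin genes, beside 0.01 over all genes tested. The integrin median had the opposite sign without JNK_WT replicate 1 (0.04) and the laminin median too (0.24). With 2 libraries against 2, an exact permutation test cannot give a p-value under 0.333, so separation of the groups is given here as a description. The counts without 1 library were not made over all genes tested, so they do not set these genes apart from others.

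**Figure D1:**
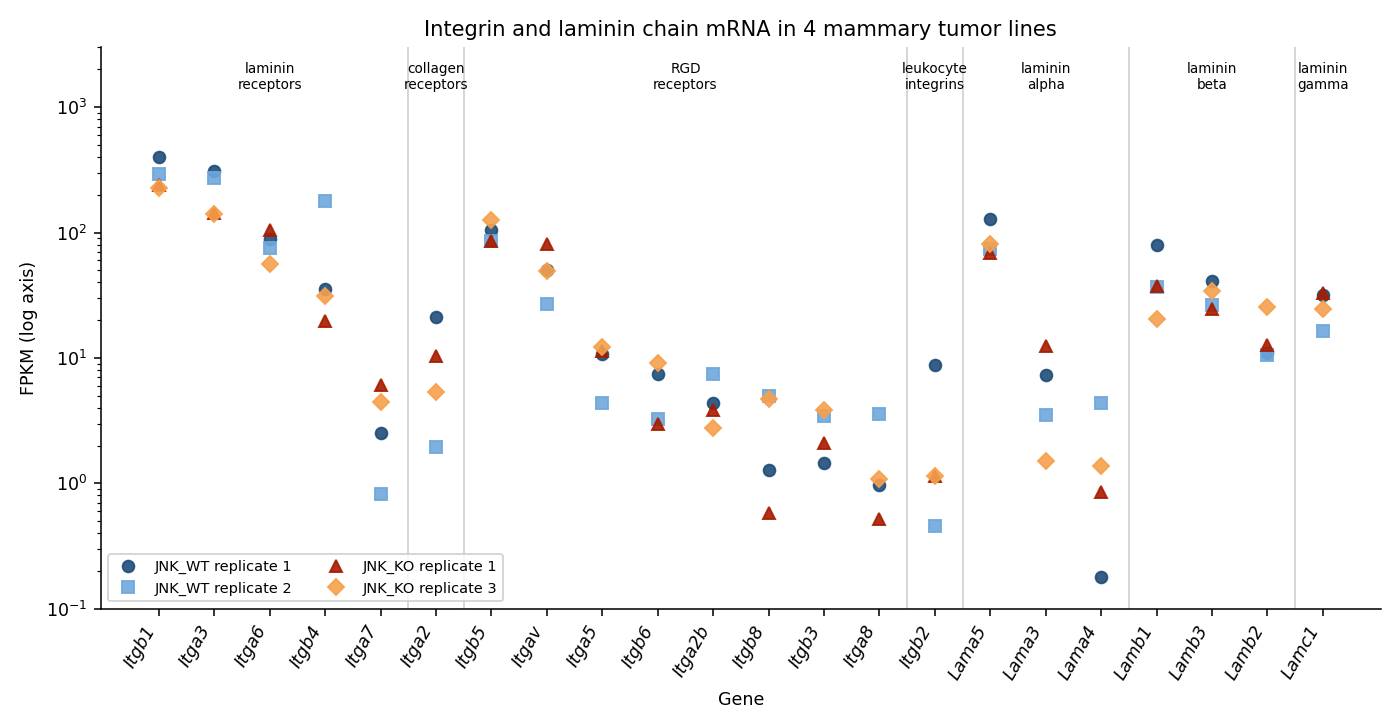
FPKM on a log axis of 22 of the genes that passed the filter on low values, grouped by role, with 1 point per library (circles and squares, JNK_WT; triangles and diamonds, JNK_KO). Itgb1 and Itga3 lie highest in every library, and Itga3 shows both JNK_KO points, at 142 and 141 FPKM, under both JNK_WT points.

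Lines of the same genotype differed from each other in these genes more than in the typical gene. The median absolute log2 difference between the JNK_WT lines was 0.91 over the 23 genes and 0.43 over all genes tested. Between the JNK_KO lines it was 0.57 and 0.33. For 19 of the 23 genes, the lines of at least 1 genotype were farther apart than the group means. The 4 exceptions are Itga3, Itgb1, Itga2b and Itga7. This count was not made over all genes tested, so it does not set these genes apart from others.

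The laminin receptor subunit genes Itgb1 and Itga3 had the highest FPKM of the integrin genes in every line. Itgb1, the beta subunit shared by the largest number of integrins, was at 400.8, 294.7, 240.9 and 226.6 FPKM. Every JNK_KO value was under both JNK_WT values, with a log2 difference of -0.56 (SE 0.26, 95% interval -1.25 to 0.14, limma adjusted p-value 0.768). Without JNK_WT replicate 1 it was -0.33.

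Itga3, the alpha subunit that pairs with Itgb1 to bind laminin 511, showed the clearest separation. It was at 312.2 and 271.5 FPKM in the JNK_WT lines, against 142.0 and 141.4 FPKM in the JNK_KO lines, and the means (291.8 ± 28.8 and 141.7 ± 0.421 FPKM, SD, n = 2 each) differed 2.06-fold. The log2 difference was -1.03 (SE 0.22, 95% interval -1.62 to -0.45), with an unadjusted limma p-value of 0.00706 and an adjusted p-value of 0.358, the smallest among the 23 genes. Leaving out any 1 line gave between -1.13 and -0.93. Itga3 lies at chr11:95044474-95076801 on the minus strand (GRCm38), and the 1043 tested genes of chromosome 11 had a median log2 difference of -0.20. Itgb4 and Itga2b, also lower in both JNK_KO lines, lie on chromosome 11 too, as does Itgb3, whose groups overlapped. The part of the chromosome in these differences was not tested. Of the 5 luminal markers, Krt8 and Epcam were lower in both JNK_KO lines as well and the other 3 overlapped between the groups, and their part in the Itga3 difference was not tested.

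Itga6, the other laminin-binding alpha subunit of epithelial cells, pairs with Itgb1 or Itgb4. It was at 89.4 and 74.9 FPKM in the JNK_WT lines, against 105.0 and 56.1 FPKM in the JNK_KO lines. The JNK_KO values lay on either side of the JNK_WT values, and the log2 difference was -0.09 (SE 0.37, 95% interval -1.09 to 0.90, limma adjusted p-value 0.999), with its sign changed without JNK_WT replicate 1 (0.04) or JNK_KO replicate 3 (0.36). The ratio of Itga3 to Itga6, which does not depend on the scaling of a library, was 3.49 and 3.62 in JNK_WT cells and 1.35 and 2.52 in JNK_KO cells.

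Itga7, a laminin receptor subunit best known from skeletal muscle, went the other way at a much lower level. It was at 2.53 and 0.815 FPKM in the JNK_WT lines, against 6.14 and 4.43 FPKM in the JNK_KO lines, a log2 difference of 1.30 (SE 0.45, 95% interval 0.09 to 2.51, unadjusted limma p-value 0.0401, adjusted 0.612). The groups did not overlap, and the difference was 0.82 without JNK_WT replicate 2. Of the 6 mesenchymal markers, 4 (Dcn, Pdgfra, Pdgfrb and Thy1) were higher in the same 2 lines and Vim and Col1a1 overlapped, and their part in the Itga7 difference was not tested. Even in JNK_KO cells, Itga6 exceeded Itga7 by 17.1 and 12.7 times.

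Itgb4 encodes the beta subunit with the long cytoplasmic part that anchors keratins in hemidesmosomes, and a single line set its pattern. It was at 35.6 FPKM in JNK_WT replicate 1, at 178.5 FPKM in JNK_WT replicate 2, against 19.8 and 31.4 FPKM in the JNK_KO lines. The JNK_KO values were under both JNK_WT values, but JNK_WT replicate 1 was nearer to the JNK_KO lines than to the other JNK_WT line. The log2 difference was -1.64 (SE 0.82, 95% interval -3.84 to 0.55, limma adjusted p-value 0.801), and without JNK_WT replicate 2 it was -0.49. Of its exon bases, 7.66% overlap a gene on the other strand (B230344G16Rik). JNK_WT replicate 2 was also the library with Itgb4 above its partner Itga6, at a ratio of 2.38, compared with 0.398 in JNK_WT replicate 1 and 0.189 and 0.559 in JNK_KO cells.

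Among the other hemidesmosome and basal genes, some were highest in the same library and others were not. Col17a1, the transmembrane collagen of hemidesmosomes, was at 18.2 FPKM in JNK_WT replicate 2 and between 0.134 and 0.177 FPKM in the other 3 libraries. Krt5 was at 61.9 FPKM there and at most 0.205 FPKM elsewhere, and the basal transcription factor Trp63 was at 21.9 FPKM there and at 0.0706, 1.16 and 6.58 FPKM in JNK_WT replicate 1 and JNK_KO replicates 1 and 3. The plaque genes Plec and Dst were not high there, with Plec at 20.9, 16.8, 27.8 and 11.9 FPKM and Dst at 28.9, 4.57, 19.6 and 11.2 FPKM, and the myoepithelial actin gene Acta2 was at 3.19 FPKM there against 29.0 FPKM in JNK_KO replicate 3. Cnn1 was highest in JNK_WT replicate 2, at 0.277, 2.24, 0.423 and 0.438 FPKM in the order of libraries. Krt14 was highest there too, at 7.34, 442.9, 26.7 and 312.8 FPKM. JNK_KO replicate 3 nevertheless had its 312.8 FPKM of Krt14 with only 31.4 FPKM of Itgb4. In JNK_WT replicate 2 the luminal markers Krt8, Krt18, Krt19, Epcam and Cdh1 were at 563.8, 752.3, 11.1, 629.7 and 115.2 FPKM. Whether the levels of Krt5, Krt14 and Trp63 in that line have a part in its Itgb4 level was not tested.

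**Figure D2:**
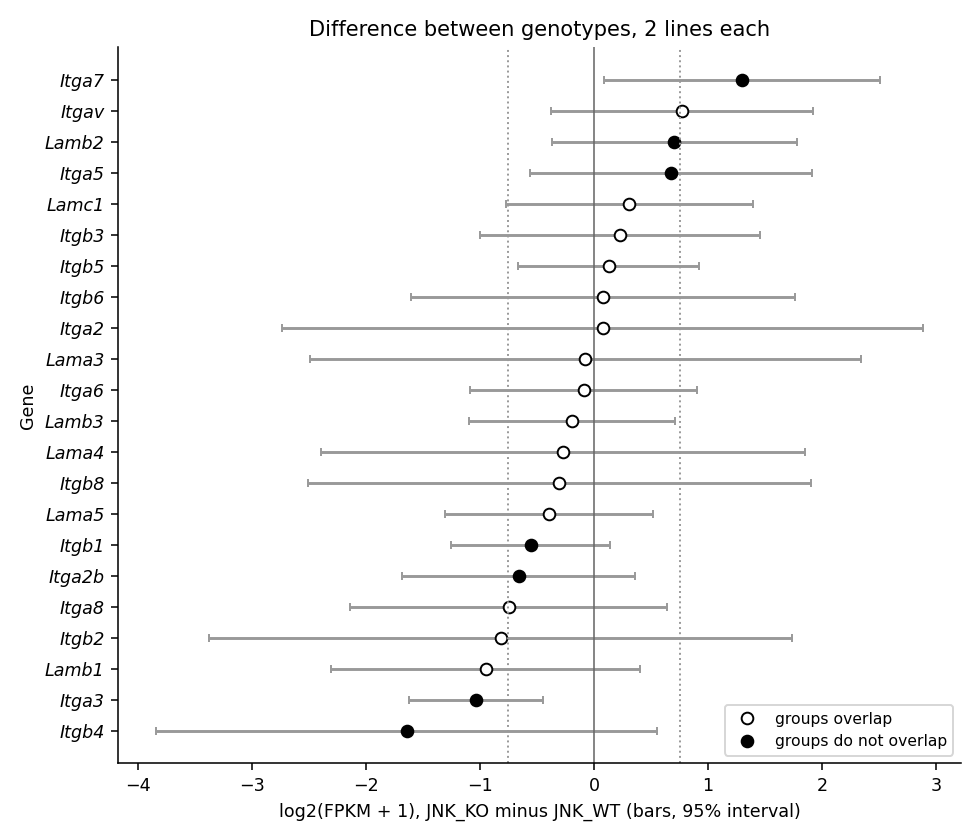
Log2 difference (JNK_KO minus JNK_WT on log2(FPKM + 1)) of 22 of the tested genes with the 95% interval of the limma fit; filled points mark genes whose groups do not overlap, and dotted lines stand at an absolute difference of 0.75. The intervals of Itga3 (-1.62 to -0.45) and Itga7 (0.09 to 2.51) exclude 0 before adjustment for the genes tested.

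To see how the receptor set was made up in each line, each alpha subunit was expressed as a percentage of the summed FPKM of the 18 alpha subunit genes, a share that library scaling cannot move. These shares were computed after the single values had been seen. They add up to the whole, so a lower share of a subunit comes with higher shares among the rest. Itga3 held 63.3% and 69.2% of the alpha sum in JNK_WT cells and 39.2% and 51.4% in JNK_KO cells. Itgav held 10.2% and 6.84% in JNK_WT cells and 22.3% and 18.1% in JNK_KO cells, while its FPKM overlapped between the groups. Itga6 held 18.1%, 19.1%, 29.0% and 20.4% in the same order of libraries. In each line these 3 subunits were the largest contributors, and Itgav exchanged no rank with Itga6. The Itga3 to Itgav ratio was 6.20 and 10.1 in JNK_WT cells and 1.76 and 2.84 in JNK_KO cells. Among the beta subunits, Itgb1 held 71.4% and 51.6% in JNK_WT cells and 68.1% and 56.1% in JNK_KO cells, Itgb5 18.8%, 15.0%, 24.1% and 31.4%, and Itgb4 6.34%, 31.3%, 5.61% and 7.76%. The summed FPKM of the alpha subunits that can pair with Itgb1 was 1.22 and 1.30 times that of Itgb1 in JNK_WT cells and 1.49 and 1.20 times in JNK_KO cells, overlapping ranges.

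**Figure D3:**
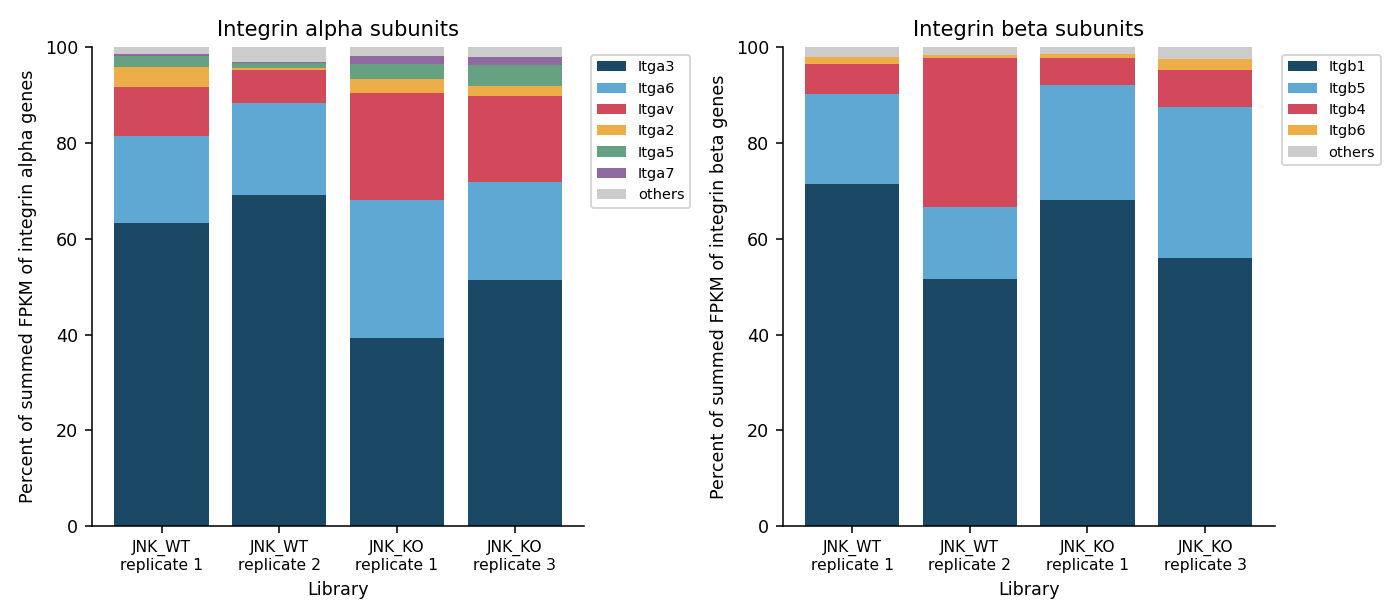
Share of the summed FPKM of integrin alpha (left) and beta (right) subunit genes held by each subunit, in percent, with 1 stacked bar per library. Itga3 takes 63.3% and 69.2% of the alpha sum in the JNK_WT bars and 39.2% and 51.4% in the JNK_KO bars, and Itgb4 takes 31.3% of the beta sum in JNK_WT replicate 2.

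The promoters of some of the genes are shown so that the sequences can be read beside the values. Itga3 and its partner Itgb1 were both lower in the JNK_KO libraries. Itgav was higher there in its share, with overlapping FPKM, and Lamb1 was the laminin gene with the largest log2 difference. Of the 37 genes, 23 had an entry in the RefSeq promoter table used (GRCm38.p6). Each sequence runs 5′ to 3′ on the strand of its gene and ends at the last base before both the RefSeq and the GENCODE start. Capitals mark GC boxes (GGGCGG on either strand). For Itga3 the 87 bases next to the RefSeq start are not printed, and they hold another GC box at -35 to -30.
Itga3 (chr11:95076802-95076964, minus strand, 163 bases): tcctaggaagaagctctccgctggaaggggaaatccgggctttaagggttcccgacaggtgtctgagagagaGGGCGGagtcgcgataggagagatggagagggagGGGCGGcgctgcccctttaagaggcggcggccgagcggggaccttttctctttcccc
Itgb1 (chr8:128685404-128685653, plus strand, 250 bases): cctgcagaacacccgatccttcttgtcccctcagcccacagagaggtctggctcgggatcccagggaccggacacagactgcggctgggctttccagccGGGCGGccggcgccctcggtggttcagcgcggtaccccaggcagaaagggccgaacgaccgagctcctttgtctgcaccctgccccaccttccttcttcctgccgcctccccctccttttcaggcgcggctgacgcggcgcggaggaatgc
Itgav (chr2:83724147-83724396, plus strand, 250 bases): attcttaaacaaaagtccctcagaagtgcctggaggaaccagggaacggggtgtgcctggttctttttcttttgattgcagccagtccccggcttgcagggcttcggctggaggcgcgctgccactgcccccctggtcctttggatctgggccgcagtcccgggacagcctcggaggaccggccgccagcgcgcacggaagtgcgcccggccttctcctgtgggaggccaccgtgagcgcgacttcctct
Lamb1 (chr12:31265043-31265233, plus strand, 191 bases): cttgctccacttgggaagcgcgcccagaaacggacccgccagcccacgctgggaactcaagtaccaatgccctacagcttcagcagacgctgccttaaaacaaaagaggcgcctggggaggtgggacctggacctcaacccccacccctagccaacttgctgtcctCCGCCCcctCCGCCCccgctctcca

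Because JNK phosphorylates JUN, a component of the AP1 transcription factor, the AP1 letters TGANTCA were searched on both strands in the 250 bases before the RefSeq start nearest to each gene's GENCODE start. They were found in 1 of the 23 promoters, that of Itgax, compared with 6.75% of 32851 promoters in the table. The related element TGACGTCA was found in 0 of 23 (1.55% of all), and TATAAA in 0 of 23 (12.4% of all). GC boxes, GGGCGG, were found in 8 of 23 (Itga3, Itga4, Itga5, Itgam, Itgb1, Itgb5, Lama5 and Lamb1) and in 32.7% of all. The searches for TGANTCA and TGACGTCA cannot match the same letters, and no match says only that the letters are not in this window. For Itga9, Lamb3, Lama2 and Itgb8, the RefSeq start lay 105002, 94295, 2816 and 526 bases inside the GENCODE gene. Their searched windows thus lay wholly within the gene.

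The RGD-binding integrins recognise fibronectin, vitronectin and the latent form of TGF-beta. Itgav, the alpha subunit common to several of them, was at 50.3 and 26.8 FPKM in the JNK_WT lines, against 80.7 and 49.8 FPKM in the JNK_KO lines. The values overlapped narrowly, by JNK_WT replicate 1 against JNK_KO replicate 3, and the log2 difference was 0.77 (SE 0.43, 95% interval -0.38 to 1.92, limma adjusted p-value 0.842), or 0.33 without JNK_WT replicate 2 and 0.43 without JNK_KO replicate 1. Of the exon bases of Itgav, 5.90% overlap a gene on the other strand (Gm13684), whose reads cannot be separated where strand was not kept.

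The beta partners of Itgav were led by Itgb5 in every line. Itgb5 was at 105.7 and 85.4 FPKM in the JNK_WT lines, against 85.2 and 126.9 FPKM in the JNK_KO lines, with a log2 difference of 0.13 (SE 0.30). Itgb3, which is abundant on platelets and osteoclasts, was at 1.455, 3.46, 2.12 and 3.82 FPKM, so that Itgb5 exceeded it between 24.7 and 72.7 times. Itgb6 and Itgb8 form receptors with Itgav that release active TGF-beta. Itgb6 was at 7.505, 3.23, 2.97 and 9.12 FPKM, high in JNK_WT replicate 1 and JNK_KO replicate 3. Itgb8 was at 1.275, 4.997, 0.577 and 4.68 FPKM, high in JNK_WT replicate 2 and JNK_KO replicate 3. The log2 differences of Itgb3, Itgb6 and Itgb8 were 0.23 (SE 0.46), 0.08 (SE 0.63) and -0.30 (SE 0.83), and the groups overlapped for all 4 beta genes.

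Itga5, the alpha subunit of the main fibronectin receptor, was at 10.8 and 4.41 FPKM in the JNK_WT lines, against 11.3 and 12.2 FPKM in the JNK_KO lines. The groups did not overlap, although JNK_WT replicate 1 was close to the JNK_KO lines, and the log2 difference of 0.67 (SE 0.47) was 0.11 without JNK_WT replicate 2. Its ligand gene Fn1 was at 483.0, 226.5, 310.6 and 188.7 FPKM, with overlapping groups. Itga8, whose receptor with Itgb1 binds nephronectin, was at 0.964, 3.57, 0.523 and 1.09 FPKM, highest in JNK_WT replicate 2, with a log2 difference of -0.75 (SE 0.52) just inside the size threshold. That difference was -0.14 without JNK_WT replicate 2, -1.36 without JNK_WT replicate 1, and past the threshold with a pseudocount of 0.1 (-1.20) and with quantile normalization (-1.03). The nephronectin gene Npnt was at 27.4, 24.9, 23.6 and 5.65 FPKM.

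Itga2b, the alpha subunit of the platelet fibrinogen receptor, was measured above 1 FPKM in each line. It was at 4.35 and 7.42 FPKM in the JNK_WT lines, against 3.81 and 2.74 FPKM in the JNK_KO lines, groups that did not overlap, with a log2 difference of -0.66 (SE 0.38, limma adjusted p-value 0.854) that was -0.33 without JNK_WT replicate 2. The platelet and megakaryocyte markers Pf4, Gp1ba and Gp9 were at most 0.435 FPKM in every library.

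Collagen receptors were represented by 1 alpha subunit. Itga2, which with Itgb1 binds collagen I and laminin, was at 21.3 and 1.93 FPKM in the JNK_WT lines, against 10.4 and 5.39 FPKM in the JNK_KO lines. The JNK_WT lines enclosed the JNK_KO lines, and the log2 difference was 0.08 (SE 1.05, 95% interval -2.73 to 2.88, limma adjusted p-value 0.999). The estimate ran from -1.39 without JNK_WT replicate 2 to 1.54 without JNK_WT replicate 1. The other collagen receptor subunits, Itga1, Itga10 and Itga11, stayed under 1 FPKM in all 4 libraries, with Itga10 between 0.195 and 0.828 FPKM and Itga11 between 0.0119 and 0.577 FPKM. Itga1, which lies close to Itga2 on chromosome 13, was at 0.0385 and 0.143 FPKM in the JNK_WT lines, against 0.573 and 0.505 FPKM in the JNK_KO lines, levels too low for the filter.

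Integrins of leukocytes were near the floor of the table. Itgal was between 0 and 0.0152 FPKM, Itgax between 0 and 0.00453 FPKM, Itgad between 0 and 0.144 FPKM, Itgam between 0.0653 and 0.0841 FPKM and Itgae between 0.0513 and 0.112 FPKM. These are the alpha subunits of lymphocyte and myeloid receptors, and Itgad was listed at 0 in 3 libraries. For Itgam, 68.7% of exon bases are shared with an overlapping gene model on the same strand. Itga4, Itga9 and Itgb7, which serve the VCAM1 and MAdCAM1 receptors and others, ranged from 0.0750 to 0.275, from 0.0154 to 0.496 and from 0.120 to 1.02 FPKM. Itgb2, the beta subunit of the leukocyte receptors, was at 8.75 and 0.460 FPKM in the JNK_WT lines, against 1.13 and 1.14 FPKM in the JNK_KO lines. JNK_WT replicate 1 alone was high, and the log2 difference of -0.82 (SE 0.96, 95% interval -3.38 to 1.74, limma adjusted p-value 0.985) was 0.55 without it. Of the 7 leukocyte markers (Ptprc, Cd68, Emr1, Cd3e, Lyz2 and Csf1r among them), 5 were under 1 FPKM in each library. The other two, Cd68 and Csf1r, were highest in the same library, at 19.9 and 1.82 FPKM, while Ptprc, the pan-leukocyte marker CD45, was at 0.0134 FPKM there. The sum of the leukocyte list was 22.0 and 3.60 FPKM in JNK_WT and 3.56 and 9.70 FPKM in JNK_KO cells. The part of leukocytes in the Itgb2 level was not tested.

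The ligands of these leukocyte receptors were read beside them. Vcam1, the ligand of the Itga4/Itgb1 receptor, was at 3.40 and 0.449 FPKM in the JNK_WT lines, against 33.2 and 15.5 FPKM in the JNK_KO lines (log2 difference 3.23, SE 0.70, limma adjusted p-value 0.375). Icam1, the ligand of the Itgal/Itgb2 receptor, was at 0.770 and 1.56 FPKM in the JNK_WT lines, against 32.3 and 13.6 FPKM in the JNK_KO lines (log2 difference 3.37, SE 0.52, limma adjusted p-value 0.231). Both JNK_KO lines thus had more of either ligand than both JNK_WT lines, although neither difference was called over all genes. The same 4 of the 6 mesenchymal markers were higher in these lines, with Vim and Col1a1 overlapping, and their part was not tested.

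**Figure D4:**
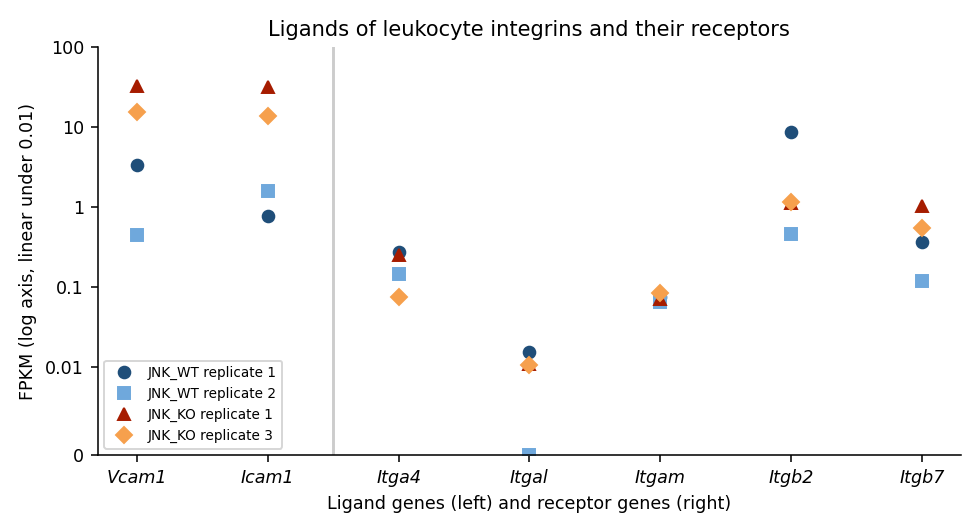
FPKM per library of the ligand genes Vcam1 and Icam1 and of genes for their leukocyte receptors, on an axis that is logarithmic above 0.01 and linear below. The ligands reach 33.2 FPKM in JNK_KO replicate 1, while Itga4, Itgal and Itgam stay under 0.3 FPKM in all 4 libraries and Itgb2 reaches 8.75 FPKM in JNK_WT replicate 1.

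Laminin alpha chains, which carry the integrin-binding domains, were dominated by Lama5. It was at 128.5 and 74.3 FPKM in the JNK_WT lines, against 68.2 and 80.5 FPKM in the JNK_KO lines and held between 83.7% and 96.6% of the summed FPKM of the 5 alpha chain genes. The groups overlapped, with a log2 difference of -0.39 (SE 0.34) that was -0.0025 without JNK_WT replicate 1. Lama3 was at 7.26 and 3.50 FPKM in the JNK_WT lines, against 12.4 and 1.498 FPKM in the JNK_KO lines, so that the JNK_KO lines enclosed the JNK_WT lines. Its log2 difference was -0.08 (SE 0.91), and it was 1.13 without JNK_KO replicate 3 and -1.29 without JNK_KO replicate 1. Lama4, a chain of vessel and mesenchymal basement membranes, was at 0.179 and 4.397 FPKM in the JNK_WT lines, against 0.846 and 1.37 FPKM in the JNK_KO lines, a log2 difference of -0.27 (SE 0.80) with overlapping groups. Lama1, the chain of embryonic basement membranes, was between 0 and 0.0245 FPKM and Lama2, the muscle chain, between 0.00307 and 0.0214 FPKM.

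Among the beta chains, Lamb1 and Lamb2 went in opposite directions. Lamb1 was at 80.1 and 36.8 FPKM in the JNK_WT lines, against 37.2 and 20.5 FPKM in the JNK_KO lines. The groups overlapped narrowly, by JNK_WT replicate 2 against JNK_KO replicate 1, and the log2 difference was -0.95 (SE 0.51, 95% interval -2.31 to 0.41, limma adjusted p-value 0.829), or -0.40 without JNK_WT replicate 1, -1.501 without JNK_WT replicate 2 and -0.53 without JNK_KO replicate 3. Lamb1 lies on chromosome 12, whose 412 tested genes had a median log2 difference of -0.41, and the part of the chromosome in the difference was not tested. Lamb2, which replaces Lamb1 in some basement membranes, was at 10.9 and 10.5 FPKM in the JNK_WT lines, against 12.8 and 25.4 FPKM in the JNK_KO lines, a log2 difference of 0.70 (SE 0.40, limma adjusted p-value 0.850) that was 0.24 without JNK_KO replicate 3. The ratio of Lamb1 to Lamb2 was 7.32 and 3.51 in JNK_WT cells and 2.91 and 0.807 in JNK_KO cells, so JNK_KO replicate 3 had more Lamb2 than Lamb1. Lamb3, a beta chain of epithelial basement membranes, was at 41.3, 26.6, 24.6 and 34.0 FPKM with overlapping groups and a log2 difference of -0.19 (SE 0.34).

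Of the gamma chains, Lamc1 was at 31.5 and 16.3 FPKM in the JNK_WT lines, against 32.9 and 24.4 FPKM in the JNK_KO lines, a log2 difference of 0.31 (SE 0.41). Lamc3 was between 0.0144 and 0.169 FPKM.

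A trimer needs all of its chains, so the chain with the lowest FPKM was read for 9 laminins in each line. All 3 chains were at 1 FPKM or more in every line for 4 laminins (311, 321, 511 and 521). For laminins 111, 211 and 221, the alpha chain was under 1 FPKM in all 4 lines. For laminins 311 and 321, Lama3 was the lowest chain in each line, at 7.26 and 3.50 FPKM in JNK_WT and 12.4 and 1.498 FPKM in JNK_KO cells. For laminin 511, the lowest chain was Lamc1 in 3 lines and Lamb1 in JNK_KO replicate 3, at 31.5, 16.3, 32.9 and 20.5 FPKM. For laminin 521 it was Lamb2 in 3 lines and Lamc1 in JNK_KO replicate 3, at 10.9, 10.5, 12.8 and 24.4 FPKM. By this reading laminin 511 was ahead of 311 in each line. The order of chains concerns RNA only and does not show how much trimer was made.

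**Figure D5:**
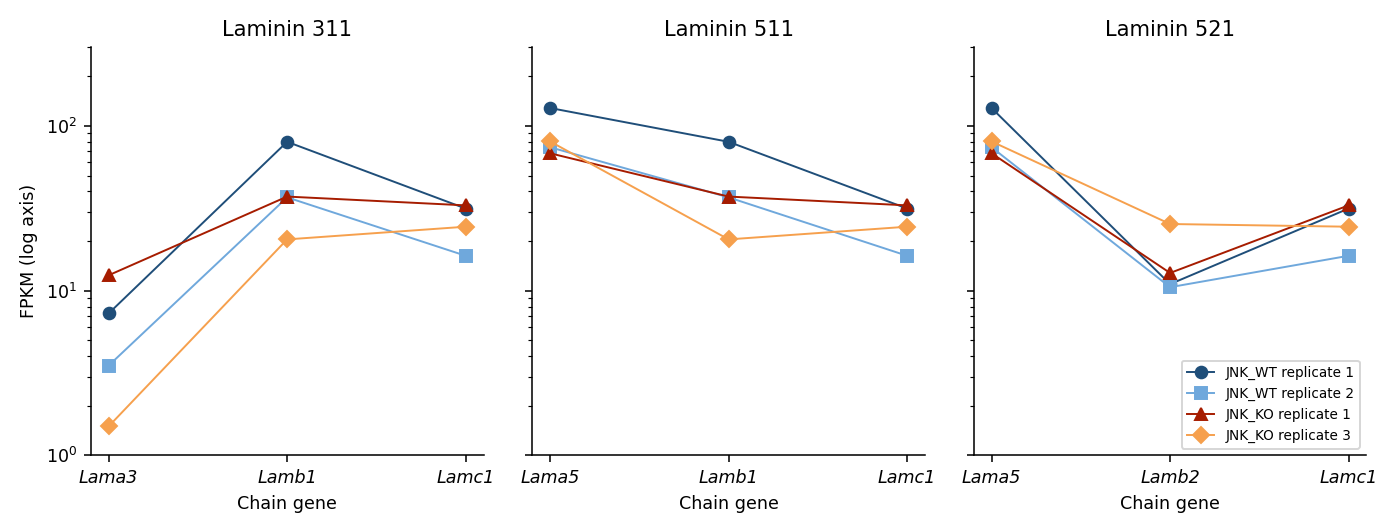
FPKM on a log axis of the 3 chain genes of laminins 311, 511 and 521, with 1 line per library. Lama3 is the low point of laminin 311 in each library, from 1.498 to 12.4 FPKM, and the chains of laminin 511 lie closer together, from 16.3 to 128.5 FPKM.

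The same reading was applied to 24 integrin pairs. Both subunits were at 1 FPKM or more in every line for 10 pairs, which were Itgb1 with Itga2, Itga3, Itga5, Itga6 or Itgav, Itgb4 with Itga6, Itgav with Itgb3, Itgb5 or Itgb6, and Itga2b with Itgb3. In 11 pairs no line had both. The alpha subunit was the lower one in every line for 18 pairs, including the 12 with Itgb1. For Itga6 with Itgb4, Itgb4 was the lower subunit in 3 lines and Itga6 in JNK_WT replicate 2.

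Lists of partner genes were described in the same fit. Of 31 cytoplasmic adhesion genes (talins, kindlins, the ILK, PINCH and parvin complex, FAK, paxillin, tensins and others), 26 were tested and 0 were called, with 6 at an unadjusted limma p-value under 0.05 (7.63% of all genes). By size, 4 were higher (9.25% of all genes) and 3 lower (6.43%) by more than 0.75, and the median log2 difference was 0.06. Fermt1, the epithelial kindlin that activates integrins, was at 16.7 and 17.0 FPKM in the JNK_WT lines, against 5.47 and 5.35 FPKM in the JNK_KO lines (log2 difference -1.48, SE 0.27, limma adjusted p-value 0.287), while its mesenchymal counterpart Fermt2 was at 14.2, 35.9, 23.3 and 39.7 FPKM with overlapping groups. The focal adhesion protein gene Zyx was at 178.5 and 123.8 FPKM in the JNK_WT lines, against 45.2 and 72.6 FPKM in the JNK_KO lines (log2 difference -1.36, SE 0.35, limma adjusted p-value 0.452). Parvb, which encodes an actin-binding partner of ILK, was at 1.39 and 0.730 FPKM in the JNK_WT lines, against 21.5 and 4.13 FPKM in the JNK_KO lines (log2 difference 2.40, SE 0.79, limma adjusted p-value 0.565). In each of these 3 genes both JNK_KO lines lay on the same side of both JNK_WT lines. Of the 26 tested, 6 separated in this way with JNK_KO higher and 6 with JNK_KO lower (18.3% and 16.7% of all genes). Ilk and Ptk2, the FAK gene, had log2 differences of 0.01 (SE 0.25) and 0.17 (SE 0.31).

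Of 18 basement membrane and hemidesmosome genes, 16 were tested and 0 were called, with 2 at an unadjusted limma p-value under 0.05, 1 higher and 3 lower by more than 0.75 (7.63%, 9.25% and 6.43% of all genes), and a median of 0.10. The genes for 2 collagens of the epithelial basement membrane zone were the 2 under 0.05. Col18a1 was at 218.6 and 126.6 FPKM in the JNK_WT lines, against 63.3 and 52.2 FPKM in the JNK_KO lines (log2 difference -1.52, SE 0.35, limma adjusted p-value 0.396). Col7a1, the collagen of anchoring fibrils, was at 47.5 and 13.8 FPKM in the JNK_WT lines, against 3.97 and 6.54 FPKM in the JNK_KO lines (log2 difference -2.13, SE 0.66, limma adjusted p-value 0.533). Nid1, which links laminin to collagen IV, was at 4.10, 2.18, 17.3 and 4.18 FPKM, a log2 difference of 1.27 (SE 0.71). Of the other laminin receptors, Dag1 (dystroglycan) and Bcam differed by 0.06 (SE 0.40) and -0.35 (SE 0.34). Cd151, the tetraspanin partner of the Itga3 and Itga6 receptors, was at 103.3 and 111.6 FPKM in the JNK_WT lines, against 79.9 and 76.3 FPKM in the JNK_KO lines (log2 difference -0.45, SE 0.21, limma adjusted p-value 0.763).

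Of 18 other integrin ligand genes, 14 were tested and 0 were called, with 5 at an unadjusted limma p-value under 0.05, 4 higher and 2 lower by more than 0.75 (again 7.63%, 9.25% and 6.43% of all genes), and a median of 0.14. Beside Vcam1 and Icam1, the genes that were higher by more than 0.75 were Nov, a gene for a secreted matricellular protein, at 0.0603 and 0.0882 FPKM in JNK_WT and 4.43 and 6.49 FPKM in JNK_KO cells, and Mfge8, an RGD ligand of Itgav receptors, at 94.3 and 111.6 FPKM in JNK_WT and 286.8 and 176.5 FPKM in JNK_KO cells. The log2 differences were 2.57 (SE 0.33, limma adjusted p-value 0.189) for Nov and 1.13 (SE 0.32, limma adjusted p-value 0.489) for Mfge8. The genes that were lower were Npnt and Tnc. Tnc, which encodes tenascin C, was at 70.7 and 110.3 FPKM in the JNK_WT lines, against 36.8 and 46.4 FPKM in the JNK_KO lines (log2 difference -1.08, SE 0.32, limma adjusted p-value 0.511). The abundant RGD ligands Spp1 and Thbs1 had overlapping groups, with Spp1 between 721.8 and 3297 FPKM and Thbs1 between 332.5 and 830.3 FPKM.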

How the data were processed

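RNA from 4 cell lines was sequenced as single-end reads. The authors trimmed the reads, drew a sample of them with seqtk, aligned them to mm10 (GRCm38) with TopHat2 2.0.14 and Bowtie2, and deposited FPKM estimated with Cufflinks 2.2.1, with 1 value per gene and library. The gene annotation and strand setting were not given in the sources used here. Cufflinks shares reads between overlapping transcripts by estimate, so overlapping genes can trade reads.

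Of 38741 rows, 27 with a calendar date for a symbol and 1 without a value were left out. Genes at 1 FPKM or more in at least 2 libraries were tested on log2(FPKM + 1), a scale that understates changes of low genes, with limma 3.58.1 (intensity trend, two-sided, R 4.3.3) and Benjamini-Hochberg adjustment over 12998 genes. On simulated data of that size, 75.3% of genes changed by 4 (log2) and 0% changed by 2 were called. Steps of low values gave depths of 1.06, 1.27 and 1.40 for JNK_WT replicates 1 and 2 and JNK_KO replicate 3 relative to JNK_KO replicate 1. The labels gave no batch, and p-values measure the spread between these lines.

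Members and gene lists were chosen with earlier results of these data known. A member and a leukocyte marker are not reported here, though both are counted in their lists. The other members are named, those passing the filter with values per library and the others by range; full statistics go to those over 0.75 (log2) and to Itga2, Itga3, Itga6, Itgb1 and Itgb4. Partner genes named from the lists, and promoters printed, were chosen after their values were seen. Positions came from GENCODE M21 (GRCm38), matched by symbol, promoters from RefSeq. Chromosome medians, pool shares and ratios are descriptions.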

Additional observations from a re-analysis of the deposited data

How the results depend on the processing

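No paired analysis was possible because number 1 is the sole replicate number found in both genotypes, and nothing in the labels makes it a common litter or day. No gene among the 23, and none of the 3 partner lists, had a call under any alternative run (pseudocounts of 0.1 and 0.5, no filter, a filter at a mean of 5 FPKM, quantile and upper quartile scaling, no intensity trend, a robust fit, an adjusted p-value threshold of 0.1 and the fits without 1 library), and 2 were at an unadjusted limma p-value under 0.05 in the fit reported. That number was 1 with a pseudocount of 0.1, with quantile normalization and with the stricter filter, and 0 to 6 across the fits without 1 library. The number over 0.75, 7, was 3 with a threshold of 1, and between 8 and 11 (without JNK_WT replicate 1) without 1 library. The number whose groups did not overlap, 7, was 11 with no filter, where all 37 genes enter, and 13 to 17 without 1 library, where 3 libraries separate more easily by construction. A fit without 1 library assumes that the lone library of its group varies like the others. The counts under other settings were not made over all genes tested, so they do not set these genes apart from others. The lack of calls says little about single genes. On simulated data 0% of genes changed by 2 (log2) were called, and the largest difference among the genes reported singly was -1.64 (Itgb4).

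The integrin median of -0.09 was 0.0067 with no filter and 0.075 with the stricter filter, and ranged from -0.48 to 0.035 without 1 library. The laminin median of -0.23 ranged from -0.51 to 0.24. The cause was not tested. Where the groups do not overlap, as for Itga2b, Itga3, Itga5, Itga7, Itgb1, Itgb4 and Lamb2, leaving out 1 library cannot change the direction, by construction. Of the genes with overlapping groups, the direction held in all 4 fits without 1 library for Itga8, Itgav, Lama5 and Lamb1. Lama5 came to -0.0025 without JNK_WT replicate 1. Counting both kinds, the direction held in 11 of 22 genes. In the other 11 it did not, with ranges of -1.39 to 1.54 for Itga2, -0.54 to 0.36 for Itga6, -2.19 to 0.55 for Itgb2, -0.20 to 0.66 for Itgb3, -0.16 to 0.41 for Itgb5, -0.60 to 0.75 for Itgb6, -1.23 to 0.62 for Itgb8, -1.29 to 1.13 for Lama3, -1.37 to 0.83 for Lama4, -0.50 to 0.12 for Lamb3 and -0.15 to 0.77 for Lamc1. Under the other settings 3 genes changed sign, Itga2 (-0.0027) and Itgb6 (-0.029) under quantile normalization and Lama4 (0.073) with a pseudocount of 0.1. The median over all genes tested was -0.04 with quantile normalization, compared with 0.01. The lowest chain was the same in 36 of 36 pairs of laminin and library under upper quartile scaling, which cannot change an order within a library.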
